A study of Mus musculus with 8 samples.

Results

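Biliary differentiation of *Lats1/2*-deleted hepatoblasts was examined by setting the RNA of L1L2_Alb iBECs, hepatoblasts grown on Matrigel for 14 days, against that of L1L2_Alb iHBs, the same kind of cells kept as hepatoblasts on collagen. The comparison rests on 3 of the 8 RNA-sequencing libraries of the study, which are 1 iHB library and 2 iBEC libraries (replicates 1 and 2), and it covers every gene whose mean level in these 3 libraries was 1 RPKM or more. RPKM is the number of reads per kilobase of gene, scaled to the depth of the library, so levels are per length. All cells came from E14.5 livers of mice on a mixed B6;129 background, and the genotype of all 3 libraries was Lats1-/-;Lats2f/fl;Alb-cre. *Lats1* is thus lost in every cell of the dish, whereas *Lats2* is lost only where Alb-cre, a recombinase under the albumin promoter, was active in the liver lineage. The cells were whole digests of fetal liver freed of red blood cells and plated without sorting, in medium with serum, hEGF, hHGF, insulin and dexamethasone, so cells of other types could remain. The control cultures (iHB, iHP and iBEC, 1 library each) were wild type, and the L1L2_Alb iHPs (2 libraries) were hepatoblasts treated with oncostatin M on collagen for hepatocyte differentiation. The labels do not say whether the replicates came from separate embryos or cultures, so p measures only the spread between these libraries, which may be technical.

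Hepatoblasts are the fetal progenitors of hepatocytes and of biliary epithelial cells (BECs), which line the bile ducts. LATS1 and LATS2 are the kinases of the Hippo pathway that phosphorylate YAP and TAZ and so keep these co-activators out of the nucleus, where they act with TEAD factors. Hepatocytes are known for secreting most plasma proteins and for the urea cycle, gluconeogenesis and bile acid synthesis, while BECs are known for keratins 7 and 19, *Sox9*, *Spp1* and water and ion transport. The question was how cells that lack *Lats1/2* change when they are placed in the condition for BEC differentiation.

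The 3 libraries held between 23841792 and 28694163 reads, as recovered from the steps of the deposited values. The deletion itself cannot be read from the table, as RPKM covers all exons of a gene. *Lats1* was at 13.9 RPKM in iHB and at 9.69 and 9.91 RPKM in iBEC replicates 1 and 2, and *Lats2* was at 19.7, 10.9 and 12.4 RPKM. The iBEC replicates were not alike in their cell makeup as far as marker genes show it. The neutrophil granule genes *S100a8*, *Ngp* and *Mpo* were at 1705, 598 and 155 RPKM in iHB, at 42.1, 4.83 and 1.43 RPKM in iBEC replicate 1, and at 979, 195 and 30.8 RPKM in replicate 2. The fibroblast genes *Dcn*, *Lum* and *Col3a1* were at 5.28, 3.53 and 173 RPKM in iHB, at 309, 259 and 1042 RPKM in replicate 1, and at 71.4, 39.8 and 519 RPKM in replicate 2. Thus iBEC replicate 1 held the least neutrophil RNA and the most fibroblast RNA. Summed over the 9 markers of each type, fibroblast and stellate markers came to 1247, 3592 and 1607 RPKM in iHB and iBEC replicates 1 and 2, and macrophage and leukocyte markers to 3543, 1238 and 2533 RPKM. The latter sums include *S100a8*, *Ngp* and *Mpo*, which made up most of the iHB sum. Of the other macrophage and leukocyte markers, *C1qa*, *Cd68* and *Tyrobp* stood above iHB in both iBEC replicates, and *Csf1r* and *Ptprc* stood below it in both. The 4 erythroid markers summed to 22.0, 1.57 and 3.09 RPKM, and the 5 endothelial markers to 6.15, 20.2 and 21.5 RPKM. *Lyve1* gave 2.75, 18.5 and 17.2 RPKM of the endothelial sums. In these bulk samples, fewer cells of a type and less RNA per cell cannot be told apart, and the part of these cells in the results below was not tested.

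**Figure D1:**
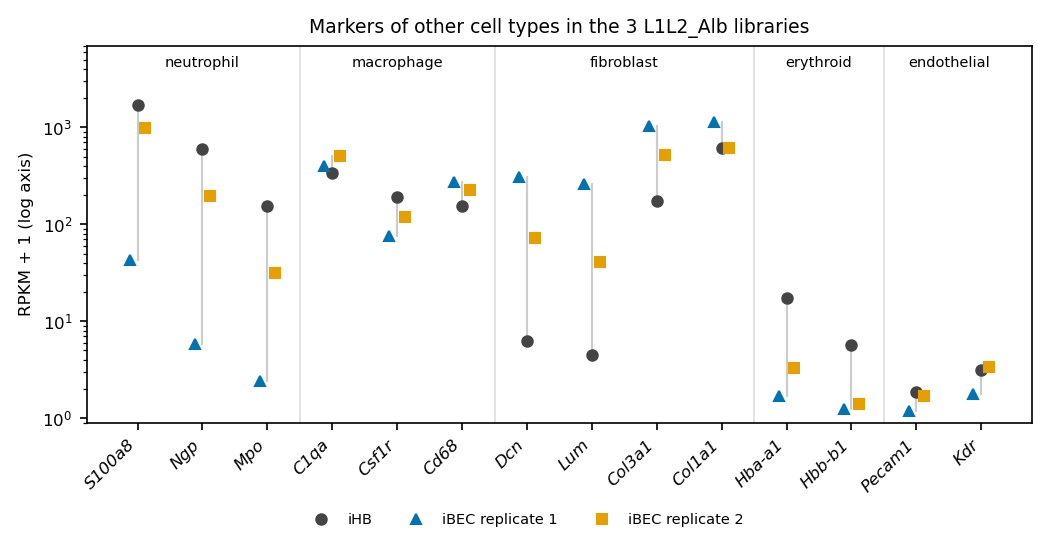
RPKM + 1 on a log axis of 14 marker genes of other cell types in the L1L2_Alb iHB library (circles) and iBEC replicates 1 (triangles) and 2 (squares), with a grey line joining the 3 libraries of a gene. *S100a8* lies at 42.1 RPKM in replicate 1 and at 979 RPKM in replicate 2, whereas *Dcn* and *Lum* lie above iHB in both iBEC replicates and highest in replicate 1.

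In L1L2_Alb iBECs, 25 of 38 plasma protein genes and 17 of 39 acute phase genes rose against L1L2_Alb iHBs in the limma test described below, and none of either list fell. By fold alone, 2 plasma protein and 2 acute phase genes were at least 2-fold lower in both iBEC libraries. In limma 3 of 28 YAP/TAZ target genes and 2 of 25 contractile genes fell and none rose. The YAP/TAZ and contractile calls depended on having both iBEC replicates, as given below. Among 13456 genes tested, 795 (5.91%) were at least 2-fold higher in both iBEC libraries than in iHB on the log2(RPKM + 1) scale, and 652 (4.85%) were at least 2-fold lower in both. This scale understates the change of genes at low levels. The count of the fold rule has no test, since there is 1 iHB library. In limma, which took the spread from the iHP and iBEC pairs of L1L2_Alb libraries and assumed that the lone iHB library varies like them, 283 genes (2.10%) rose and 61 (0.453%) fell at an adjusted p below 0.05, and 1858 genes had an unadjusted p below 0.05. Taken alone, replicate 1 had 1291 genes 2-fold higher and 1281 lower and replicate 2 had 971 and 825, both set against the same iHB library. 694 genes differed at least 2-fold between the replicates themselves.

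The median difference over all genes was -0.12 on the log2 scale, and upper-quartile scaling moved it to 0.01. After this scaling, 895 genes (6.65%) were 2-fold higher and 513 (3.81%) 2-fold lower in both libraries, so the higher genes made up 63.6% of the calls in place of 54.9%. With limma, 274 genes then rose and 34 fell. The limma calls depended on the spread that was pooled. 120 genes were called without iBEC replicate 1 and 222 without replicate 2, and with no filter on low values none was called (smallest adjusted p = 0.0884, 2375 genes with an unadjusted p below 0.05). Of 130 called genes of the lists and of the rule for named genes, 47 kept an adjusted p below 0.05 with either replicate left out and after scaling. They are named as such below.

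**Figure D2:**
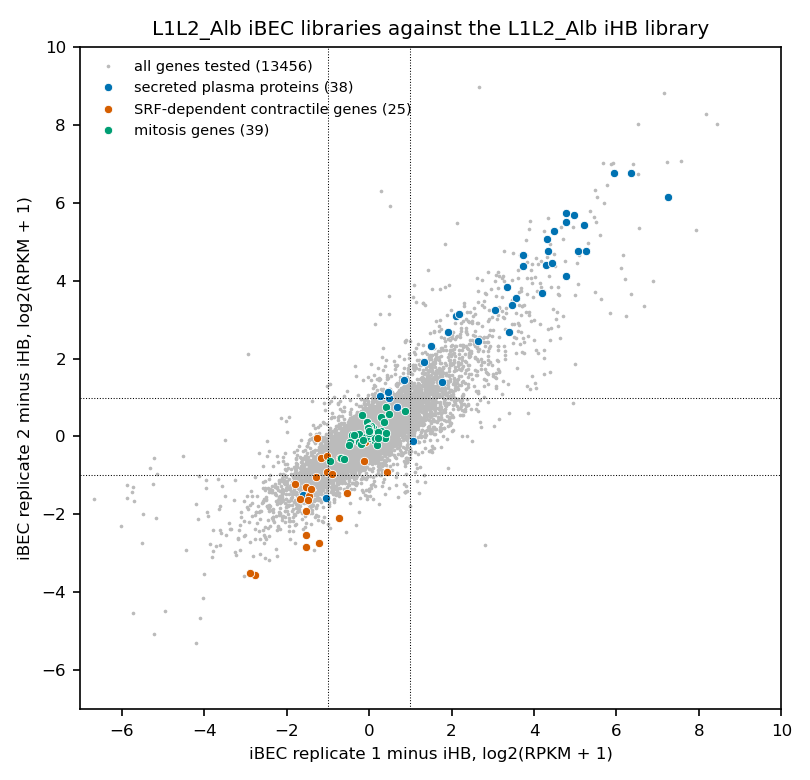
Difference from the L1L2_Alb iHB library on the log2(RPKM + 1) scale in iBEC replicate 1 (x axis) and replicate 2 (y axis) for all 13456 genes tested (grey), with 38 secreted plasma protein genes (blue), 25 SRF-dependent contractile genes (orange) and 39 mitosis genes (green), and dotted lines at 2-fold. Plasma protein genes reach the upper right, contractile genes lie to the lower left, and mitosis genes lie around 0.

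Markers bore out the biliary label in part. *Spp1*, which encodes the secreted protein osteopontin of bile duct cells, was at 428 RPKM in iHB and at 6027 and 10760 RPKM in the iBEC replicates, and it rose (log2 difference 4.23 ± 0.69 SE, adjusted p = 0.026). *Aqp1*, the water channel of the bile duct membrane, rose from 0.884 RPKM to 39.4 and 25.8 RPKM (4.13 ± 0.42, adjusted p = 0.00448). *Muc1*, an apical mucin, rose from 0.265 RPKM to 12.9 and 13.4 RPKM (3.48 ± 0.43, adjusted p = 0.009). *Elf3*, an epithelial transcription factor, stood at 0.796, 12.3 and 13.1 RPKM and rose too (adjusted p = 0.0162). For each of these genes both iBEC libraries lay far above iHB and within 2-fold of each other. *Aqp1* and *Muc1* kept their call with either replicate left out, but *Spp1* and *Elf3* lost it without replicate 1 (adjusted p = 0.214 and 0.127) or replicate 2 (0.233 and 0.0956).

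The keratins and *Sox9* did not follow. *Krt7* was at 1470 RPKM in iHB and at 319 and 568 RPKM in the iBEC replicates, which is 4.61-fold and 2.59-fold lower, with an adjusted p of 0.142. *Krt19* was at 400, 254 and 355 RPKM, a difference smaller than 2-fold in both. *Krt8* and *Krt18*, the keratins that all simple epithelia of liver share, were at 2625 and 2218 RPKM in iHB, at 632 and 674 RPKM in replicate 1 and at 1198 and 1112 RPKM in replicate 2 (adjusted p = 0.263 and 0.305). *Sox9*, which marks the ductal plate, was at 5.03, 4.89 and 6.87 RPKM. *Epcam* was at 20.8, 25.9 and 21.1 RPKM, and *Cftr*, the chloride channel of bile ducts, stayed at or below 0.21 RPKM in all 3 libraries. In all, 9 of 29 biliary markers tested were 2-fold higher in both iBEC libraries and 3 were 2-fold lower, 4 rose and none fell in limma, and their median difference was 0.53. Summed over the 10 biliary markers fixed for the label other than *Spp1*, the level was 2068 RPKM in iHB against 723 and 1099 RPKM in the iBEC replicates.

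**Figure D3:**
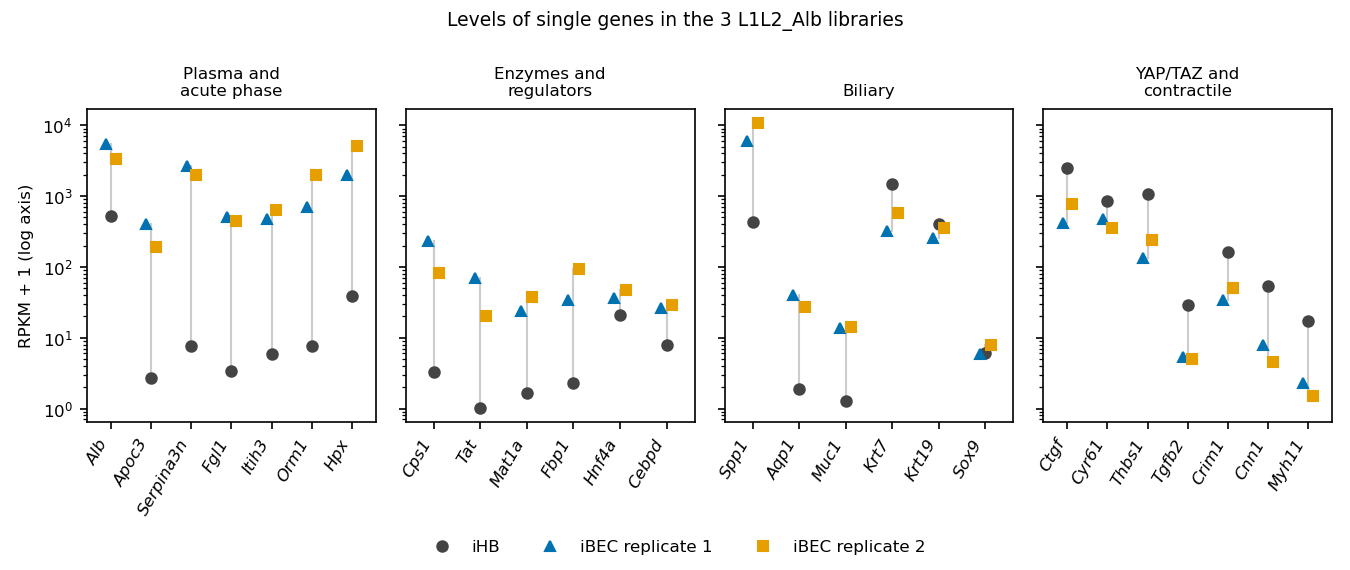
RPKM + 1 on a log axis of single genes in the L1L2_Alb iHB library (circles) and iBEC replicates 1 (triangles) and 2 (squares), grouped as plasma and acute phase genes, enzymes and regulators, biliary genes, and YAP/TAZ and contractile genes. *Alb*, *Serpina3n*, *Tat* and *Spp1* lie far above iHB in both iBEC libraries, whereas *Krt7*, *Ctgf*, *Thbs1* and *Myh11* lie below it and *Krt19* and *Sox9* stay near it.

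Genes of secreted plasma proteins made the clearest group. 30 of 38 tested were 2-fold higher in both iBEC libraries and 2 were 2-fold lower, 25 rose and none fell in limma, and the median difference was 3.57 (3.52 in replicate 1 and 3.62 in replicate 2). *Alb*, encoding albumin, was at 524 RPKM in iHB and at 5499 and 3357 RPKM in the iBEC replicates (3.03 ± 0.56, adjusted p = 0.0406). Its call was lost after upper-quartile scaling (adjusted p = 0.0509) and without replicate 1 or 2 (0.481 and 0.199). *Apoc3*, an apolipoprotein of triglyceride-rich particles, rose from 1.66 RPKM to 408 and 189 RPKM (6.71 ± 0.48, adjusted p = 0.00181). *Itih3*, a hyaluronan-binding inhibitor chain, rose from 4.95 RPKM to 482 and 646 RPKM (6.55 ± 0.44, adjusted p = 0.00163). *Vtn*, the adhesive glycoprotein vitronectin, rose from 4.05 RPKM to 187 and 217 RPKM.

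*Pzp*, a protease inhibitor of the alpha-2-macroglobulin family, was at 4.53, 340 and 597 RPKM and *Serpinc1*, encoding antithrombin, at 1.05, 55.4 and 92.0 RPKM, and both rose. The apolipoprotein genes *Apoa2*, *Apoa4*, *Apoa5*, *Apof* and *Apoh* rose as well, from between 0.360 and 6.56 RPKM in iHB to between 28.5 and 288 RPKM in iBEC. These 5 genes, *Apoc3*, *Itih3*, *Pzp*, *Vtn*, *Serpinc1*, *Serpina10*, *Serpina1e* and *Azgp1* are the 13 that kept their call with either replicate left out and after scaling. The α1-antitrypsin copies *Serpina1a* to *Serpina1e* have near-identical sequences, so reads may be split among them. Not every plasma protein gene was higher in iBECs. *Apoa1*, the main apolipoprotein of high-density lipoprotein, was at 8670 RPKM in iHB and at 4170 and 2889 RPKM in iBEC, and *Afp*, the fetal counterpart of albumin, at 3959, 1313 and 1391 RPKM. Both were 2-fold lower in both libraries but did not pass the test (adjusted p = 0.448 and 0.233). *Rbp4*, the retinol carrier, was at 161, 340 and 148 RPKM, so the replicates lay on either side of iHB.

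Coagulation and complement genes shifted in the same direction, with 23 of 32 2-fold higher and 3 2-fold lower, 17 rising and none falling in limma, and a median difference of 2.46. *Plg*, the precursor of plasmin, was at 1.90 RPKM in iHB and at 132 and 204 RPKM in iBEC (5.83 ± 0.39, adjusted p = 0.00163). *Cpb2*, a carboxypeptidase that slows clot lysis, was at 0.780, 91.3 and 112 RPKM (5.84 ± 0.37, adjusted p = 0.00163). *F9*, coagulation factor IX, had no read in iHB against 368 and 422 reads in iBEC, which is at least 136-fold and 169-fold higher when iHB is set at a floor of 3 reads. *C8b*, a chain of the membrane attack complex, likewise had no read in iHB and 183 and 181 reads in iBEC. These rises were thus from levels close to absence. *C3*, the central complement component, began at a higher level of 125 RPKM and reached 838 and 1307 RPKM (adjusted p = 0.0238). The genes that were 2-fold lower were *F11* (21.4, 10.1 and 8.22 RPKM), *C2* (58.1, 20.6 and 14.9 RPKM) and *Masp1* (134, 56.0 and 29.7 RPKM), with adjusted p from 0.0838 to 0.609. *Cpb2*, *Plg*, *Proz*, *C1s* and *F12* kept their call with either replicate left out. The others, *F9*, *C8b* and *C3* among them, lost it in at least one of these fits (largest adjusted p in the list 0.388 without replicate 1 and 0.338 without replicate 2, both for *Fgb*).

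Acute phase genes, which hepatocytes raise in inflammation through interleukin-6-type cytokines and STAT3, held the largest differences of the comparison. 21 of 39 were 2-fold higher in both libraries and 2 were 2-fold lower, 17 rose and none fell in limma, and the median difference was 3.21, with 1.98 in replicate 1 and 3.77 in replicate 2. The α1-antichymotrypsin-like gene *Serpina3n* was at 6.55 RPKM in iHB and at 2637 and 1977 RPKM in iBEC (8.24 ± 0.44, adjusted p = 0.00141), and *Serpina3k* at 2.97, 1138 and 1244 RPKM (8.23 ± 0.70, adjusted p = 0.00253). *Fgl1*, a liver-secreted protein related to fibrinogen, rose from 2.36 RPKM to 507 and 440 RPKM (7.14 ± 0.38, adjusted p = 0.00141). *Orm2*, encoding an acid glycoprotein, had 3 reads in iHB against 3220 and 9418 in iBEC, a ratio of 1190 (95% exact counting interval 407 to 5773) in replicate 1. *Hpx*, the plasma scavenger of haem, rose from 37.9 RPKM to 1974 and 5041 RPKM (adjusted p = 0.00446). *Orm1* and *Orm2*, and the *Serpina3* genes, are close paralogues among which reads may be split.

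The 3 fibrinogen chains rose together. *Fgb* was at 408 RPKM in iHB and at 5018 and 6909 RPKM in iBEC, *Fga* at 93.2, 1890 and 2277 RPKM, and *Fgg* at 132, 3450 and 4443 RPKM. The adjusted p of *Fgb*, *Fga* and *Fgg* were 0.0261, 0.00821 and 0.00635, and all 3 lost their call when either iBEC replicate was left out. *Socs3*, the feedback inhibitor of STAT3 signalling, was at 25.3, 84.4 and 108 RPKM (1.87 ± 0.36, adjusted p = 0.0475) and lost its call in the same way (0.206 and 0.224). Serum amyloid *Saa3* went the other way, with 3516 RPKM in iHB and 192 and 1054 RPKM in iBEC (adjusted p = 0.305). *Cish*, a feedback gene of STAT5, was at 30.2, 6.97 and 8.07 RPKM (adjusted p = 0.0925), and *Il6ra*, the interleukin-6 receptor chain, at 12.3, 9.02 and 8.26 RPKM.

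Promoter sequences from RefSeq (GRCm38.p6) were searched for the core letters TTCNNNGAA that STAT factors bind, on both strands and in the 250 bases before each gene's start. Of the 39 acute phase genes 32 had a promoter in the table, and 9 of them (28.1%) held the letters, against 7.18% of all 27025 promoters and 22 of 192 (11.5%) of the genes that rose and had a promoter. Those of *Fgb*, *Itih4* and *Socs3*, which all rose, are shown 5′ to 3′ with the match in capitals, because they stand for a fibrinogen chain, a plasma acute phase protein and the feedback gene of the list. They lie at chr3:83049864-83050113 (minus strand), chr14:30886226-30886475 (plus strand) and chr11:117969367-117969616 (minus strand), and the match begins 162, 51 and 154 bases before the start.
Fgb: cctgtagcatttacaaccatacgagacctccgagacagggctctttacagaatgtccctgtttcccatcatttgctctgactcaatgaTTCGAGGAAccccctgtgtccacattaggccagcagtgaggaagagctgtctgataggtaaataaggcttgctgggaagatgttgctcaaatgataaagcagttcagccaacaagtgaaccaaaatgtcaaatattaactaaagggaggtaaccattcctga
Itih4: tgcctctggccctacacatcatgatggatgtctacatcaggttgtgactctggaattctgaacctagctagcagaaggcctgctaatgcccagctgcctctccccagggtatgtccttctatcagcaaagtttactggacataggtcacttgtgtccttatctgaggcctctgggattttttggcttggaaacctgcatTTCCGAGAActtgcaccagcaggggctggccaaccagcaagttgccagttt
Socs3: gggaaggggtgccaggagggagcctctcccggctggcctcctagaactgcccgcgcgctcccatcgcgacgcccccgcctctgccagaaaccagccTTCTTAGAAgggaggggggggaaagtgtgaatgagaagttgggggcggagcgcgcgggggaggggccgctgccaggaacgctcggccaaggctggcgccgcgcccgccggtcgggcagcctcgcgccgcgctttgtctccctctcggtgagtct
The C/EBP core TTGCNNAA was present in 12 of the 32 promoters (37.5%) against 9.55% of all promoters, and in 40 of the 192 genes that rose (20.8%). A match of this kind describes the letters and shows no binding, and *Serpina3n*, *Hpx* and *Crp* had no STAT match in this window although they rose. Conversely, *Hamp*, *Hamp2*, *Serpina3g* and *Steap4* of the acute phase list held a STAT match and were not called. The motifs were chosen after the values were seen.

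Enzymes of amino acid breakdown and the urea cycle were higher in part. 17 of 30 were 2-fold higher in both iBEC libraries and none was 2-fold lower, 9 rose, and the median difference was 1.83. *Cps1*, the entry enzyme of the urea cycle, was at 2.24 RPKM in iHB and at 233 and 80.4 RPKM in iBEC (5.41 ± 0.78, adjusted p = 0.0167), and its call was lost without replicate 1 (0.0752). *Tat*, the tyrosine aminotransferase that marks mature hepatocytes, had 1 read in iHB against 4224 and 1100 in iBEC and rose (5.22 ± 0.67, adjusted p = 0.0116). *Mat1a*, the adult liver form of methionine adenosyltransferase, rose from 0.670 RPKM to 22.9 and 36.5 RPKM. *Tat* and *Mat1a* kept their call with either replicate left out. In contrast, *Arg1*, the last enzyme of the urea cycle, was at 501, 398 and 453 RPKM, *Asl* at 45.2, 52.2 and 58.7 RPKM and *Cth* at 12.7, 8.35 and 11.97 RPKM, so these 3 stayed within 2-fold.

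Of the xenobiotic and bile genes, 16 of 29 tested were 2-fold higher and 1 was 2-fold lower, 10 rose and none fell, with a median of 1.61. 14 of the 43 listed genes were under the filter, *Cyp7a1*, the rate-limiting enzyme of bile acid synthesis, among them (0, 0.15 and 0.03 RPKM). *Adh1*, the liver alcohol dehydrogenase, rose from 2.40 RPKM to 91.0 and 76.8 RPKM (4.64 ± 0.37, adjusted p = 0.00184), and *Cyp2d26* from 0.572 RPKM to 52.4 and 38.6 RPKM. *Sult1a1*, a sulfotransferase for phenols, rose from 14.0 RPKM to 269 and 212 RPKM. *Adh1*, *Cyp2d26*, *Sult1a1* and *Cyp2f2* kept their call with either replicate left out. The bile transporters *Slc10a1*, *Abcb4* and *Abcc2* rose from 0.241, 1.10 and 2.24 RPKM to between 4.68 and 19.02 RPKM, and lost their call when a replicate was left out (0.136, 0.276 and 0.313 without replicate 1). *Ugt2b34*, a glucuronosyltransferase, was at 193, 56.6 and 65.8 RPKM (adjusted p = 0.0795).

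Among glucose genes, 8 of 30 were 2-fold higher and 3 were 2-fold lower, 5 rose and 1 fell, and the median was 0.37. *Fbp1*, fructose bisphosphatase of gluconeogenesis, rose from 1.32 RPKM to 33.3 and 92.9 RPKM (adjusted p = 0.0131). It kept its call with either replicate left out. The glucose transporters stood lower in iBEC. *Slc2a1* was at 802, 205 and 256 RPKM (adjusted p = 0.0714), and *Slc2a3* fell from 62.6 RPKM to 18.1 and 16.5 RPKM (adjusted p = 0.0457), a call that was lost after scaling (0.071) and without replicate 1 (0.297) or 2 (0.237). Fatty acid oxidation genes stayed mostly within 2-fold (5 higher and 1 lower of 31, 3 rose, median 0.28). *Fabp1*, the liver fatty acid binding protein, rose from 1.35 RPKM to 34.2 and 107 RPKM, and *Cd36*, a fatty acid translocase, from 2.08 RPKM to 43.0 and 37.8 RPKM, while *Pdk4*, a kinase that turns off pyruvate dehydrogenase, was at 150, 20.4 and 16.8 RPKM (adjusted p = 0.0546). For cholesterol and fatty acid synthesis, 2 of 34 genes were 2-fold higher, and 1 of them, the desaturase *Scd1*, rose (16.1, 72.5 and 84.0 RPKM, adjusted p = 0.0406; 0.197 without replicate 1 and 0.175 without replicate 2).

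Of the transcription factors of the hepatic programme, 10 of 26 were 2-fold higher and 1 was 2-fold lower, 2 rose and none fell, with a median of 0.67. *Mlxipl*, the carbohydrate response factor ChREBP, rose from 0.745 RPKM to 11.97 and 8.44 RPKM (adjusted p = 0.018), and *Cebpd*, a C/EBP factor of the acute phase, from 6.89 RPKM to 25.0 and 28.2 RPKM (adjusted p = 0.0444). Neither kept its call when an iBEC replicate was left out. *Hnf4a*, the main regulator of hepatocyte identity, was at 20.2, 35.4 and 45.6 RPKM (0.96 ± 0.35, adjusted p = 0.27). *Onecut1* was at 1.11, 8.90 and 6.74 RPKM (adjusted p = 0.0816) and *Nr5a2*, a nuclear receptor of bile acid genes, at 0.550, 4.08 and 3.59 RPKM (adjusted p = 0.0791), so that both iBEC libraries lay above iHB. *Cebpa* was at 25.1, 19.2 and 25.1 RPKM, close to iHB in both. *Foxa2* (35.6, 13.1 and 19.4 RPKM) and *Gata6* (68.6, 20.6 and 24.9 RPKM), both endoderm regulators, stood lower in iBEC with adjusted p of 0.261 and 0.15.

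Fetal and hepatoblast genes did not move as a group. 6 of 20 were 2-fold higher and 3 2-fold lower, 2 rose, and the median was 0.29, which turned to -0.27 over the members with a mean of at least 5 RPKM. The imprinted fetal transcript *H19* rose from 108 RPKM to 1059 and 1735 RPKM (adjusted p = 0.015), and its neighbour *Igf2*, a fetal growth factor, was at 37.4, 203 and 301 RPKM (adjusted p = 0.0663). *Plagl1*, another imprinted gene, was at 9.64, 2.56 and 2.28 RPKM (adjusted p = 0.0755). The call of *H19* was lost without replicate 1 (0.0942) or 2 (0.108).

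YAP/TAZ target genes stood lower in iBECs than in iHBs. 10 of 28 were 2-fold lower in both libraries and 1 was 2-fold higher, 3 fell and none rose in limma, and the median difference was -0.82 (-0.68 after scaling). *Ctgf*, the most used YAP/TAZ readout, was at 2469 RPKM in iHB and at 412 and 771 RPKM in iBEC, 5.99-fold and 3.20-fold lower with an adjusted p of 0.0978. *Cyr61* was at 848, 481 and 349 RPKM, whereas *Ankrd1* was at 376, 494 and 296 RPKM with the replicates on either side of iHB. *Thbs1*, the matricellular protein thrombospondin 1, fell from 1084 RPKM to 132 and 240 RPKM (-2.60 ± 0.47, adjusted p = 0.038). *Tgfb2*, a ligand of the TGFβ pathway, fell from 27.9 RPKM to 4.39 and 3.93 RPKM (-2.48 ± 0.36, adjusted p = 0.0162). *Crim1*, a membrane protein that binds bone morphogenetic proteins, fell from 161 RPKM to 33.4 and 49.3 RPKM (-1.96 ± 0.38, adjusted p = 0.0465).

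None of the 3 calls stood without replicate 1 (adjusted p = 0.159 for *Tgfb2*, 0.294 for *Thbs1* and 0.325 for *Crim1*) or without replicate 2 (0.129, 0.0811 and 0.106), and *Thbs1* and *Crim1* also lost theirs after scaling (0.0527 and 0.0659). *Areg*, an EGF receptor ligand, was the member that was 2-fold higher, at 2.65, 14.53 and 11.6 RPKM (adjusted p = 0.0683). The TEAD core GGAATG was found in the 250 bases before the start in 7 of 20 YAP/TAZ targets with a promoter (35.0%), against 12.6% of all promoters, 6 of the 45 genes that fell (13.3%) and 40 of the 192 that rose (20.8%). The targets *Ajuba*, *Amotl2*, *Ankrd1*, *Axl* and *Ptpn14* held a match as well and neither rose nor fell in limma. *Crim1* is shown as a member with a match that fell, at chr17:78199998-78200247 (plus strand), with the match in capitals 79 bases before the start.
Crim1: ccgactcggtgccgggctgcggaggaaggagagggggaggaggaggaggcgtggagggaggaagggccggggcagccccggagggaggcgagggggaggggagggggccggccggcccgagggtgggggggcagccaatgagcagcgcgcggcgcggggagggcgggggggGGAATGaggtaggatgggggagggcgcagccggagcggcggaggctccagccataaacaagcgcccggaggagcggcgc

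Of the Hippo pathway components, 6 of 27 were 2-fold lower and 1 was 2-fold higher, and 1 fell, with a median of -0.56. *Amot*, encoding the scaffold protein angiomotin that holds YAP at junctions, fell from 54.4 RPKM to 8.57 and 10.1 RPKM (-2.43 ± 0.35, adjusted p = 0.0162; 0.154 without replicate 1 and 0.0881 without replicate 2). *Yap1* itself was at 29.5, 24.4 and 24.6 RPKM, and *Wwtr1*, encoding TAZ, at 35.2, 14.9 and 16.7 RPKM (adjusted p = 0.186). *Tead2*, a DNA-binding partner of both, was the member that was 2-fold higher, at 2.52, 10.01 and 8.27 RPKM.

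Among TGFβ genes, 7 of 34 were 2-fold lower and 1 was 2-fold higher, 1 rose and 1 fell, and the median was -0.60. Besides *Tgfb2*, which fell, the co-receptor *Tgfbr3* was at 26.9, 12.9 and 4.85 RPKM. *Inhbb*, an activin subunit, rose from 1.44 RPKM to 13.8 and 11.3 RPKM (adjusted p = 0.0306; 0.242 without replicate 1 and 0.127 without replicate 2). No gene of the Notch pathway passed the test, and 3 of 19 were 2-fold lower. The ligand *Jag1* was at 15.9, 4.40 and 4.30 RPKM (adjusted p = 0.087), the receptor *Notch2* at 15.8, 11.3 and 8.26 RPKM and the target *Hes1* at 8.84, 11.9 and 14.0 RPKM.

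The SRF-dependent contractile genes, which include actin and myosin genes of smooth muscle and myofibroblasts, held the highest share of lower genes among the lists with at least 10 genes tested. 13 of 25 were 2-fold lower in both libraries and none was higher, 2 fell, and the median was -1.38 (-1.24 after scaling). *Cnn1*, encoding calponin, fell from 52.1 RPKM to 6.79 and 3.53 RPKM (-3.16 ± 0.46, adjusted p = 0.0167), and *Myh11*, smooth muscle myosin, from 16.0 RPKM to 1.30 and 0.504 RPKM (-3.19 ± 0.51, adjusted p = 0.0237). Both calls were lost without replicate 1 (0.0672 and 0.0942) or 2 (0.0902 and 0.114). *Acta2*, the actin of activated stellate cells, was at 385, 133 and 65.5 RPKM, and *Actg2* at 219, 75.5 and 29.7 RPKM. For these 4 genes replicate 2 lay below replicate 1, the same order as the summed fibroblast markers. The iHB library had the highest level of all 4 genes and the lowest sum (1247 RPKM). The part of fibroblasts in these levels was not tested. *Tpm4*, a tropomyosin of all cells, was at 312, 291 and 285 RPKM, close to iHB in both iBEC libraries. The actin genes *Actb* (2615, 904 and 1058 RPKM) and *Actg1* (1796, 734 and 877 RPKM) stood at least 2-fold lower in both.

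Some fibroblast-type matrix genes went the opposite way. Of 34 collagen and matrix genes 9 were 2-fold higher and 3 2-fold lower, 3 rose, and the median was 0.91 in replicate 1 against 0.06 in replicate 2. The proteoglycan gene *Dcn* rose to 309 and 71.4 RPKM from 5.28 RPKM (4.57 ± 0.81, adjusted p = 0.0351; 0.0868 without replicate 1). *Col15a1*, a basement membrane collagen, rose from 12.2 RPKM to 169 and 113 RPKM (adjusted p = 0.0406) and *Mfap5*, a microfibril protein, from 0.272 RPKM to 5.10 and 4.25 RPKM (adjusted p = 0.0308). *Thy1*, a surface marker of portal fibroblasts, rose from 4.94 RPKM to 66.8 and 33.7 RPKM (adjusted p = 0.0197). Without replicate 1 the adjusted p of *Col15a1*, *Mfap5* and *Thy1* were 0.214, 0.15 and 0.154. *Col1a1* was at 606, 1130 and 606 RPKM, so that only replicate 1 lay above iHB. *Dcn* and *Col1a1* are themselves among the fibroblast markers summed above. *Col4a2*, of the basement membrane under epithelia, was at 879, 321 and 404 RPKM, and *Col7a1*, the anchoring fibril collagen, at 42.6, 10.3 and 7.07 RPKM (adjusted p = 0.203 and 0.093).

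Matrix proteases and their inhibitors were 2-fold higher in 7 of 25 and 2-fold lower in 2, and 5 rose (median 1.08). *Mmp7*, matrilysin, which injured bile duct epithelium is known to express, was at 0.595 RPKM in iHB and at 48.4 and 65.0 RPKM in iBEC (5.16 ± 0.40, adjusted p = 0.00184), and it kept its call with either replicate left out. *Timp1*, an inhibitor of metalloproteases, rose from 171 RPKM to 1507 and 1494 RPKM (3.13 ± 0.45, adjusted p = 0.0167; 0.166 without replicate 1 and 0.117 without replicate 2). *Plaur*, the urokinase receptor, was at 362, 69.9 and 150 RPKM. Of 26 integrins and laminins 3 were 2-fold higher and 4 2-fold lower, and 1, the laminin receptor chain *Itga7*, rose (1.65, 16.9 and 14.2 RPKM, adjusted p = 0.0145; 0.164 without replicate 1 and 0.0926 without replicate 2). No epithelial junction gene passed the test, with 6 of 32 2-fold higher and 7 2-fold lower. The desmosome genes *Dsp* (61.4, 13.8 and 22.0 RPKM) and *Dsg2* (81.6, 17.9 and 25.5 RPKM) stood lower, while *Tjp3*, of tight junctions, was at 0.195, 2.42 and 4.05 RPKM and *Grhl2*, a regulator of epithelial junctions, at 0.204, 4.05 and 2.20 RPKM.

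Proliferation genes differed little from iHB. None of 39 mitosis genes was 2-fold higher or lower in both libraries, with a median of 0.08, and 1 of 40 DNA replication genes was 2-fold higher, with a median of 0.12. None of these genes passed limma. *Mki67*, a marker of cycling cells, was at 7.44, 4.25 and 4.74 RPKM, and *Ccne1*, the cyclin of S-phase entry, was the gene that was 2-fold higher (4.58, 13.7 and 11.1 RPKM, adjusted p = 0.166). *Cdkn1c*, an imprinted inhibitor of cyclin-dependent kinases, fell from 61.4 RPKM to 6.60 and 4.22 RPKM (-3.31 ± 0.48, adjusted p = 0.017; 0.0916 without replicate 1 and 0.0962 without replicate 2).

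Other lists held single genes that differed. Of 26 chemokine and cytokine genes 4 were 2-fold higher and 8 2-fold lower. The alarmin *Il33* rose from 1.32 RPKM to 21.6 and 62.1 RPKM (adjusted p = 0.0172) and *Cx3cl1*, fractalkine, fell from 17.7 RPKM to 2.45 and 3.24 RPKM (adjusted p = 0.0261). Among EGF ligands and receptors *Btc*, betacellulin, rose from 0.424 RPKM to 9.85 and 6.14 RPKM (adjusted p = 0.0403), whereas *Hbegf* fell from 148 RPKM to 38.1 and 32.4 RPKM (adjusted p = 0.0456, and 0.0746 after scaling). The ligands *Wnt7a* (96.6, 6.48 and 12.9 RPKM, adjusted p = 0.0145) and *Wnt11* (6.91, 0.873 and 0.933 RPKM, adjusted p = 0.0351) fell. These 6 calls did not hold in both fits with an iBEC replicate left out. *Mt3*, a metallothionein, rose from 3.24 RPKM to 190 and 191 RPKM (5.50 ± 0.53, adjusted p = 0.00385), and *Hfe2*, hemojuvelin of iron sensing, had no read in iHB against 219 and 250 in iBEC. Both kept their call with either replicate left out, and 7 of 22 iron and metal genes were 2-fold higher in all. *Ly6d*, a surface protein of epithelial progenitors, rose from 2.12 RPKM to 261 and 398 RPKM (6.69 ± 0.38, adjusted p = 0.00151), also with either replicate left out. No gene of the interferon list (0 higher and 3 lower of 26) or of the unfolded protein and stress list (0 and 0 of 31) passed limma, and 1 of 27 NRF2 response genes, the glutathione transferase *Gsta4*, rose (10.4, 47.3 and 46.4 RPKM, adjusted p = 0.0324; 0.26 without replicate 1 and 0.171 without replicate 2).

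**Figure D4:**
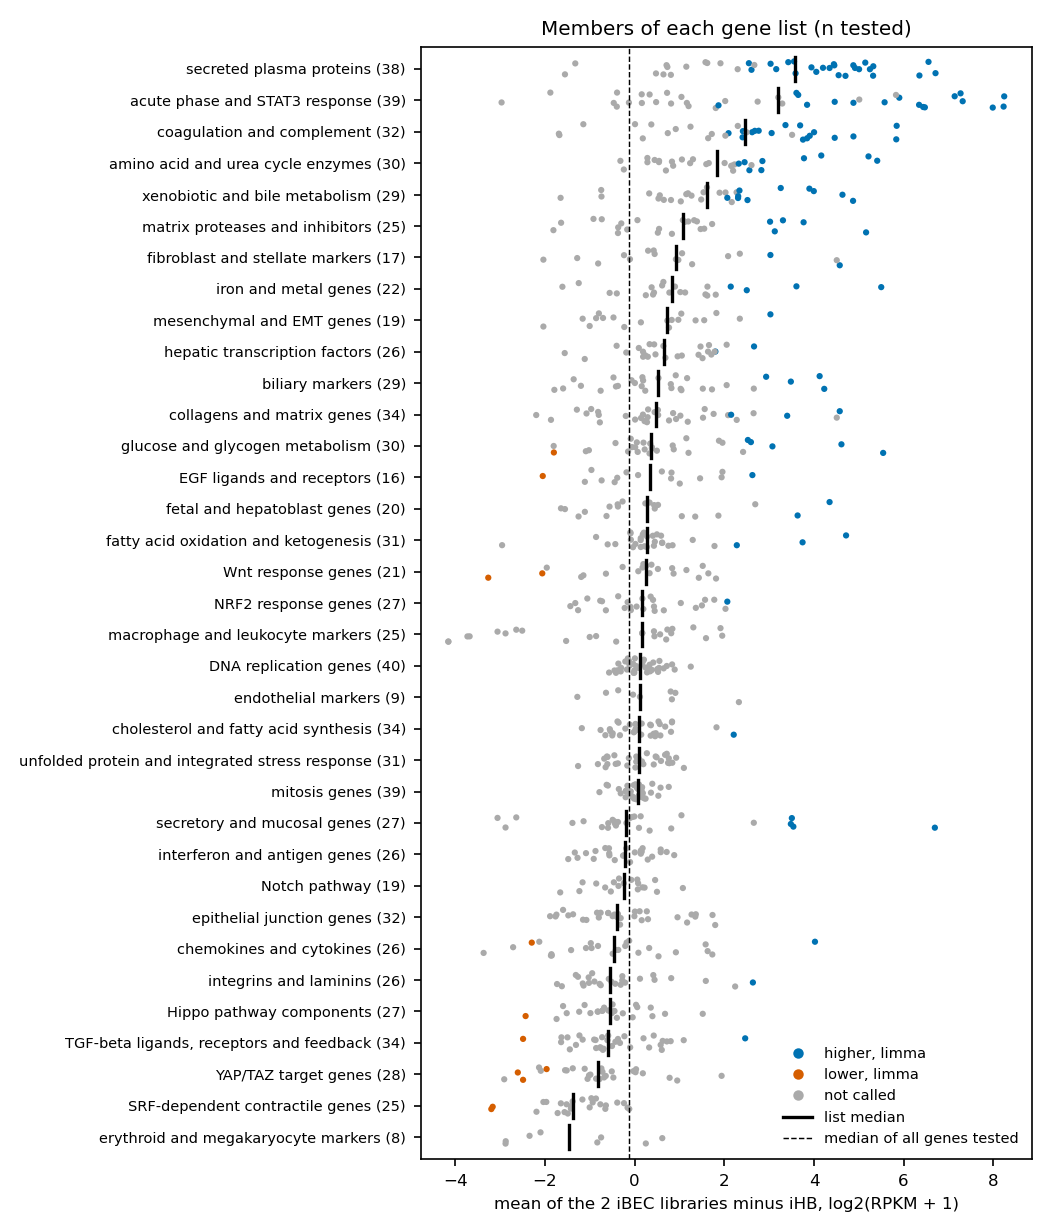
Mean of the 2 iBEC libraries minus iHB on the log2(RPKM + 1) scale for each tested member of the gene lists, ordered by list median (black bars), with genes that rose (blue) or fell (orange) in limma and those not called (grey), and a dashed line at the median of all genes tested. Plasma protein, acute phase and coagulation lists lie highest with medians of 3.57, 3.21 and 2.46, whereas YAP/TAZ target and contractile lists lie below the dashed line at -0.12.

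Ranked over all genes by the smaller of the 2 differences, the 12 highest genes were *Serpina3k*, *Serpina3n*, *Orm2*, *Serpina3m*, *Fgl1*, *Mt4*, *Orm1*, *Ly6d*, *Itih3*, *Apoc3*, *Pzp* and *Itih4*. All 12 rose, and 7 of them are members of the acute phase list and 3 of the plasma protein list. *Mt4*, a metallothionein of stratified epithelia, was at 0.624, 149 and 172 RPKM and lost its call without replicate 1 (adjusted p = 0.0574). The 12 lowest were *Irg1*, *Ccl17*, *Sept4*, *Igfbp2*, *Clec4e*, *Tppp3*, *Gpr84*, *Ager*, *Cdkn1c*, *Tmem130*, *Cxcl2* and *Cxcl3*, of which 8 fell. *Sept4*, a septin, fell from 458 RPKM to 13.9 and 19.5 RPKM (-4.71 ± 0.37, adjusted p = 0.00184), and *Ager*, the receptor of glycated proteins, from 165 RPKM to 10.8 and 18.5 RPKM (adjusted p = 0.0118). *Igfbp2*, an insulin-like growth factor binding protein, fell from 86.6 RPKM to 3.76 and 1.20 RPKM (adjusted p = 0.017). *Ccl17*, a chemokine of dendritic cells and macrophages, fell from 182 RPKM to 2.48 and 6.85 RPKM (adjusted p = 0.00539). *Igfbp2* lost its call without replicate 1 (0.0542) or 2 (0.0771) and *Ager* without replicate 1 (0.0833), while *Sept4* and *Ccl17* kept their call with either replicate left out. The macrophage activation genes *Irg1* (38.3, 0.060 and 0.162 RPKM), *Clec4e* (57.7, 2.39 and 1.30 RPKM), *Cxcl2* and *Cxcl3* did not pass the test (adjusted p from 0.15 to 0.376). General macrophage and leukocyte markers stood on both sides of iHB. *C1qa* was at 334, 398 and 512 RPKM, *Tyrobp* at 397, 434 and 460 RPKM and *Cd68* at 153, 274 and 227 RPKM, while *Csf1r* was at 189, 74.6 and 118 RPKM and *Ptprc* at 12.6, 8.67 and 9.82 RPKM. Of 25 such markers tested, 3 were 2-fold higher and 6 2-fold lower, and none passed limma.

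The change of wild-type cells under the same treatment (control iBEC minus control iHB, 1 library each) shares no library with that of L1L2_Alb cells, and the difference between both was tested. No gene had a different change at an adjusted p below 0.05 in limma (0.00% of 13456 in either direction, smallest adjusted p = 0.191, 645 genes with an unadjusted p below 0.05), a test in which 3 of the 4 groups are 1 library. The medians stood side by side as 3.57 and 1.68 for L1L2_Alb and control cells in plasma protein genes, 3.21 and 3.23 in acute phase genes, and 1.83 and 0.69 in amino acid and urea cycle enzymes, against -0.12 and -0.43 for all genes. The changes began from unlike levels. The plasma protein list had a mean log2(RPKM + 1) of 7.70 in control iHB and 5.05 in L1L2_Alb iHB. It stood at 9.52 in control iBEC, above the 8.19 and 8.42 of L1L2_Alb iBEC replicates 1 and 2. For single genes, *Serpina3n* differed by 8.24 in L1L2_Alb and 5.21 in control cells, *Apoc3* by 6.71 and 3.32, and *Cps1* by 5.41 and 0.52. *Cps1* began at 85.0 RPKM in control iHB and at 2.24 RPKM in L1L2_Alb iHB. It was at 123 RPKM in control iBEC, between the 233 and 80.4 RPKM of L1L2_Alb iBEC replicates 1 and 2. YAP/TAZ targets had medians of -0.82 and -1.12 and contractile genes of -1.38 and -1.68. The biliary markers had a median of 0.53 in L1L2_Alb cells against -1.10 in control cells, where 15 of 29 were at least 2-fold lower and 4 at least 2-fold higher. Over all 13456 genes, 1945 were at least 2-fold lower and 601 at least 2-fold higher in control cells. *Krt7* was lower in both kinds of cells (-1.79 and -2.66).

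**Figure D5:**
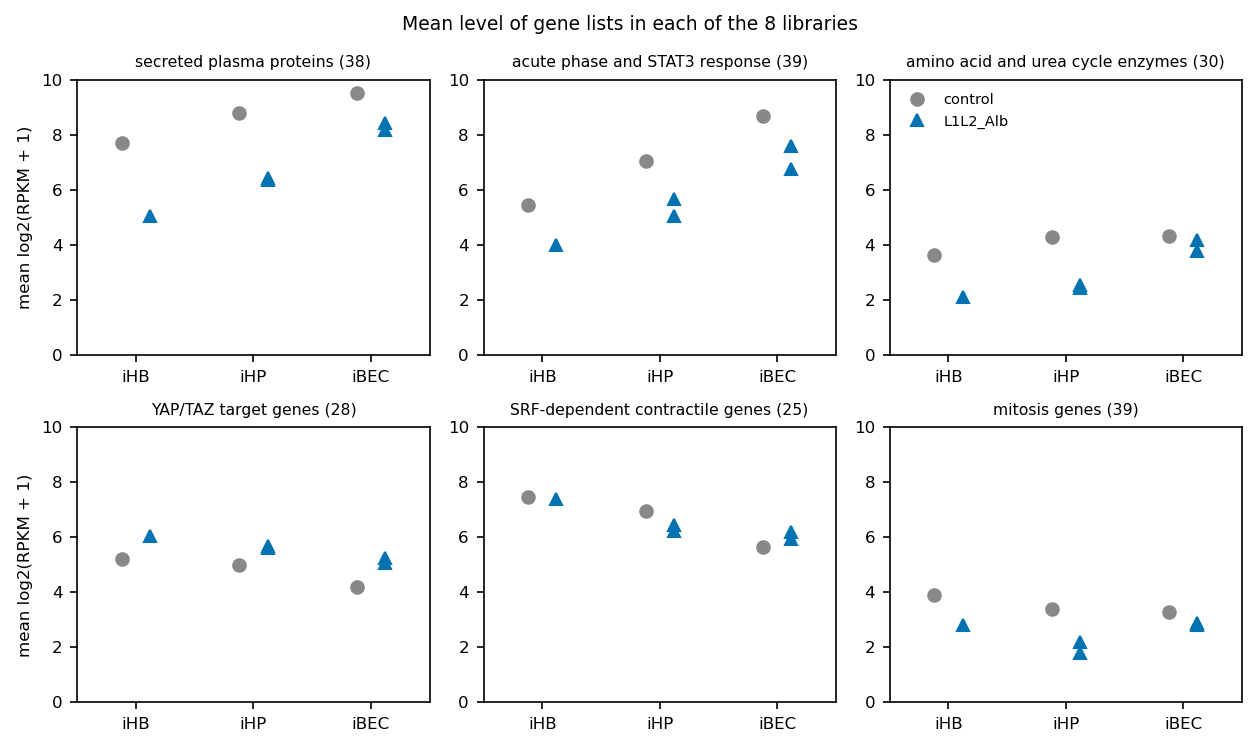
Mean log2(RPKM + 1) of the tested members of 6 gene lists in each of the 8 libraries, by stage, for control (grey circles) and L1L2_Alb cells (blue triangles). In L1L2_Alb cells the plasma protein, acute phase and urea cycle lists are lowest in iHB and highest in iBEC, and the YAP/TAZ target and contractile lists are highest in iHB.

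L1L2_Alb iBECs were last compared with L1L2_Alb iHPs, the cells taken toward hepatocytes, with 2 libraries each. By the sample records, the iHPs had 5 days of oncostatin M at 12.5 ng/ml, while the iBECs had 14 days on Matrigel. Lineage, time, matrix and oncostatin M therefore cannot be told apart in this comparison. 435 genes (3.23%) were higher and 68 (0.505%) lower in iBEC than in iHP in limma. Of the hepatocyte lists, 16 of 38 plasma protein, 15 of 32 coagulation and complement and 12 of 30 amino acid and urea cycle genes were higher in iBEC and none was lower. Of 29 xenobiotic and bile genes, 9 were higher and 2 lower, the lower ones being *Ugt2b34* (log2 difference -1.74, adjusted p = 0.0322) and *Aldh1a1* (-1.68, adjusted p = 0.0403). *Alb* was at 568 and 526 RPKM in the iHP replicates (adjusted p = 0.0218 against iBEC), about the iHB level of 524 RPKM. *Apoc3* was at 2.48 and 2.33 RPKM, *Tat* at 0.137 and 0.079 RPKM and *Mmp7* at 1.30 and 0.802 RPKM in iHP (adjusted p = 0.00261, 0.00875 and 0.00288). Thus these 4 genes stood near their iHB level in iHP and far above it in iBEC. *Fgb* differed from them, with 4322 and 5753 RPKM in iHP against 5018 and 6909 RPKM in iBEC (adjusted p = 0.856), and *Socs3* was at 110 and 91.3 RPKM in iHP, also near the iBEC levels (adjusted p = 0.926). As a whole, the plasma protein list already stood above iHB in iHP. Its mean log2(RPKM + 1) was 5.05 in iHB, 6.43 and 6.38 in iHP replicates 1 and 2, and 8.19 and 8.42 in iBEC replicates 1 and 2. *Tgfb2* at 17.6 and 20.1 RPKM and *Amot* at 35.7 and 30.9 RPKM in iHP were higher than in iBEC (adjusted p = 0.0206 and 0.0261).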

How the data were processed

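RNA of 8 cultures was sequenced by the authors (TruSeq RNA v2, HiSeq 2000), who deposited RPKM per gene and library. The submitters' processing notes name Bowtie 0.12.2 and mm8, while the counting tool and annotation are not given in the sources used here. The unit was read from the values, as short RNA genes of known length move in whole steps, and this gave the reads per library. 10538 of 13456 tested genes (78.3%) came out as whole reads within 0.01, and these reads served only for depth and floors of 3 reads. Intervals and floors cover counting error only. Of 23471 entries, 4 of repeated symbols were left out. Groups follow the labels.

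Values were changed to log2(RPKM + 1), as the study used log2 values. Genes whose mean level in the 3 libraries was 1 RPKM or more were compared by difference, and by limma 3.58.1 (R 4.3.3, lmFit, eBayes with trend, 6 groups, 2 residual degrees of freedom) with Benjamini-Hochberg adjustment over all genes. The step was tested on simulated data. The iBEC libraries differed by more than counting noise (chi-square per degree of freedom 152.1 over 10550 genes). Genes named are the 3 highest and 3 lowest of each list, the 12 highest and 12 lowest of all genes that pass the fold rule with and without scaling (small RNAs and unnamed genes left out), 27 genes of the study and further list members. The comparison, the members and all 36 lists were chosen with earlier results of these data known. Alternatives were upper-quartile scaling (percentile 75), a pseudocount of 0.1, no filter or a mean of at least 5 RPKM, leaving out each iBEC library, eBayes without trend, a fit on the 3 libraries, and a replicate block. Tables and figures were made in Python 3.11.15 (pandas 2.3.3, numpy 2.4.6, matplotlib 3.10.9). Some genes of the lists are not reported here by name.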

Additional observations from a re-analysis of the deposited data

Results flagged for a closer look

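The 10 genes given here went at least 2-fold one way in the control iBEC library and at least 2-fold the other way in both L1L2_Alb iBEC libraries, each against its own iHB library on the log2(RPKM + 1) scale. Over all 13456 genes tested, 601 were at least 2-fold higher and 1945 lower in control iBEC. In both L1L2_Alb iBEC libraries, 795 were higher and 652 lower. These counts do not say how many of all genes went opposite ways, which is not given here. The difference between both changes was tested by the interaction term in limma, which called 0 genes (645 with an unadjusted p below 0.05), and no other tool was run. The controls are 1 library each. Of the epithelial junction genes and their regulators, *Cldn7* differed by -3.71 in control cells and by 1.16 and 1.18 in L1L2_Alb replicates 1 and 2 (interaction adjusted p = 0.191). *Esrp1* differed by -1.98 against 1.24 and 1.47 (0.361), *Grhl2* by -1.24 against 2.07 and 1.41 (0.510), and *Marveld3* by -1.01 against 1.32 and 1.41 (0.512). The glucose transporter gene *Slc2a2* differed by -3.56 in control cells against 3.15 and 1.69 (0.361). *Gnmt*, of glycine metabolism, differed by -1.50 against 3.09 and 1.25 (0.877), and *Gsta3*, a glutathione transferase, by -1.79 against 2.23 and 1.32 (0.409). *Col6a2*, a collagen chain, differed by -1.60 against 3.31 and 2.00 (0.410), and *Mmp15*, a membrane metalloprotease, by -1.23 against 1.01 and 1.38 (0.510). *Lect2*, a hepatocyte-secreted protein, was the reverse, at 1.20 in control cells against -1.34 and -1.04 (0.596).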

How the results depend on the processing

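Genes 2-fold higher ranged from 971 to 1291 and genes 2-fold lower from 825 to 1281 when 1 iBEC library stood alone, and limma calls from 120 to 222. With a mean of at least 5 RPKM 518 genes were 2-fold higher. With no filter limma called 0 genes (2375 with an unadjusted p below 0.05), and the cause was not tested. The medians of fetal and hepatoblast genes and of macrophage and leukocyte markers turned to -0.27 and -0.12 with a mean of at least 5 RPKM (0.29 and 0.17 otherwise), where fewer members were tested. Of 130 called genes named or listed, 123 kept their call after scaling and 120 with a pseudocount of 0.1. For iBEC against iHP, replicate numbers did not pair the libraries (r = -0.02 across genes between the differences of replicate 1 and 2 in both groups). A replicate block on 4 libraries gave 946 calls, against 508 without the block on the same libraries, a fit added after seeing the data. No paired fit of iBEC against iHB was possible because there is 1 iHB library.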
